A study of Mus musculus with 6 samples.

Results

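Transcript levels of 10 genes of the intestinal crypt were described in the mouse duodenum: Lgr5, Olfm4, Ascl2, Smoc2, Axin2, Tnfrsf19, Rgmb, Sox9, Znrf3 and Rnf43, known as markers of crypt stem cells or as targets of Wnt signalling. They were picked by gene symbol, and each matched 1 of the 23699 deposited gene models. The deposited unit is FPKM, fragments scaled by transcript length and library depth. All 10 passed the filter on low values (0.5 FPKM or more in 3 or more libraries) and so were among the 13596 genes tested. RNA came from the 2 cm of duodenum next to the stomach of 6-week-old mice of mixed background, with 3 libraries per group. Controls carried 1 floxed and 1 wild-type Nkx2-2 allele (Nkx2.2flox/+), with no Cre in their listed genotype. Mutants were Nkx2.2flox/flox; Villin-Cre/+, in which the Villin promoter drives Cre in the intestinal epithelium, and mutant 3 also carried a Rosa26Tomato/+ reporter allele. Cre is therefore listed for the mutants and for no control, so an effect of Cre and an effect of the deletion cannot be told apart. The labels do not say that each library is a separate animal, and p-values measure the spread between these libraries.

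The epithelium of the small intestine is renewed from stem cells at the base of the crypts, which lie between Paneth cells. Wnt ligands bind Frizzled and LRP receptors and stabilise beta-catenin, which acts with TCF factors to switch on target genes. R-spondins bind LGR receptors and remove the ubiquitin ligases RNF43 and ZNRF3 from the cell surface, which otherwise clear the Wnt receptors, and AXIN2 and both ligases are themselves Wnt targets that dampen the pathway.

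The depth behind the values was estimated at 21.0 to 26.2 M fragments per library, from fragment counts recovered from the deposited FPKM bounds. Nkx2-2, the targeted gene, had 1.13, 1.32 and 0.779 FPKM in controls 1 to 3 and 1.10, 0.736 and 0.221 FPKM in mutants 1 to 3. The groups overlapped, and its log2 change, mutant minus control as for all changes below, was -0.47 ± 0.30 (SE; limma adjusted p = 0.999; exact two-sided permutation test p = 0.2, where 3 against 3 cannot go below 0.1). Without mutant 3, the library with the lowest value, the Nkx2-2 change was -0.15. Which exons the floxed allele removes is not given in the sources used here, so this value does not check the deletion. Control 3 and mutant 3 stood apart from the other libraries in Reg3b, an antimicrobial lectin, at 42934 and 47743 FPKM against 207 to 5823 FPKM in the other 4. The enterocyte genes Apoa1 and Apoa4 had 2676 to 11372 FPKM, as the tissue label calls for. The tissue was whole duodenum, in which fewer cells of a type and less RNA per cell cannot be told apart.

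For each of the 10 genes the control and mutant means differed by less than the SD of the controls. The control and mutant libraries overlapped for each of the 10 genes, while 7.75% of all tested genes had groups that did not overlap. The test (limma on log2(FPKM + 0.5), two-sided, Benjamini-Hochberg adjustment over all tested genes, threshold 0.05) called 0 of the 10, beside 0.0221% of all tested genes (3 of 13596). At an unadjusted p under 0.05 it also gave 0 of the 10, beside 3.43% of all tested genes. The log2 changes ran from -0.20 for Axin2 to 0.11 for Ascl2, with 3 means higher and 7 lower in the mutants on the log scale. The median over the 10 was -0.07, and the median over all tested genes was -0.02, with 55.8% of them below 0. Each gene had a limma adjusted p of 0.999.

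**Figure D1:**
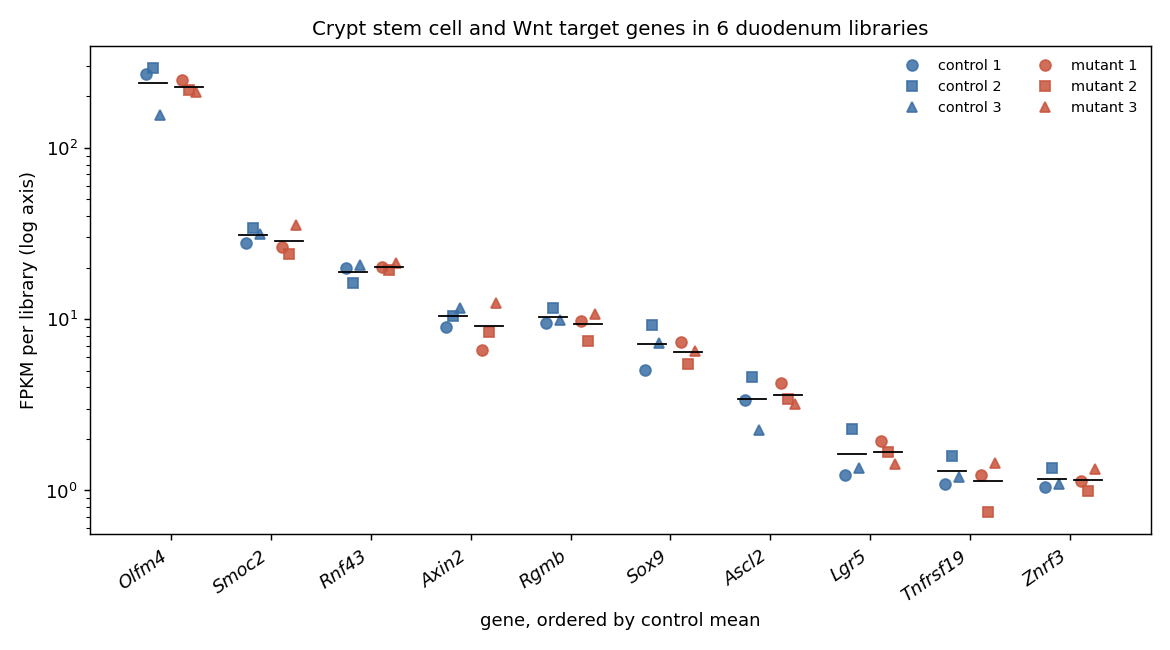
FPKM of the 10 genes in each library on a log axis, ordered by control mean. Blue points are controls and red points mutants, the symbol gives the replicate number, and bars are group means (n = 3). The red and blue points overlap in range for each gene, from Olfm4 at 156 to 292 FPKM down to Znrf3 at 0.998 to 1.35 FPKM.

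Lgr5 encodes the R-spondin receptor that marks cycling stem cells of the crypt base (chromosome 10, 114887370 to 115024836, minus strand, genome build mm9 as for all positions of genes below). It had 1.23, 2.29 and 1.36 FPKM in controls 1 to 3 and 1.94, 1.68 and 1.43 FPKM in mutants 1 to 3. All 3 mutants lay inside the range of the controls. The means were 1.63 ± 0.582 and 1.68 ± 0.255 FPKM (SD, n = 3 per group), a log2 change of 0.07 ± 0.21 (SE). At 131 to 225 fragments per library, counting error alone amounted to a coefficient of variation of at most 8.74%, and the controls varied by 35.8%.

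Olfm4, which encodes a secreted glycoprotein abundant in crypt base cells and is also a Notch target (chromosome 14, 80400109 to 80421737, plus strand), had the highest level of the 10. It had 271, 292 and 156 FPKM in controls 1 to 3 and 249, 218 and 212 FPKM in mutants 1 to 3. Control 3 was the low library, and the 3 mutants lay between it and the other controls. The means were 240 ± 73.2 and 226 ± 19.7 FPKM, a log2 change of -0.04 ± 0.24. Its libraries held 4792 to 10187 fragments, with a counting error of at most 1.44%, and the controls varied by 30.5%.

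Ascl2, the transcription factor of crypt base stem cells (chromosome 7, 150152727 to 150155169, minus strand), had 3.37, 4.61 and 2.26 FPKM in controls 1 to 3. Mutants 1 to 3 had 4.22, 3.41 and 3.20 FPKM, again inside the control range. The log2 change was 0.11 ± 0.23, from 3.42 ± 1.18 to 3.61 ± 0.540 FPKM, and control 3 was the lowest library as for Olfm4. Lgr5, Olfm4 and Ascl2 shared their order within each group in 2 respects: control 2 was the highest control for each, and mutant 1 was the highest and mutant 3 the lowest mutant for each.

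Smoc2, which encodes a matricellular protein and is used as a stem cell marker (chromosome 17, 14416513 to 14541797, plus strand), had 27.7, 34.1 and 31.6 FPKM in controls 1 to 3. It had 26.3, 24.1 and 35.3 FPKM in mutants 1 to 3. Mutants 1 and 2 lay below the controls and mutant 3 above them, and the log2 change was -0.14 ± 0.16. Smoc2 is also expressed by cells outside the epithelium in many tissues. The 14 fibroblast markers summed to 298, 294 and 437 FPKM in controls 1 to 3 and to 284, 245 and 396 FPKM in mutants 1 to 3, with mutant 2 the lowest for both, and their part in the Smoc2 values was not tested.

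Axin2, a scaffold of the complex that degrades beta-catenin and a feedback target of Wnt signalling in many tissues (chromosome 11, 108781663 to 108812095, plus strand), had the lowest log2 change of the 10. It had 9.02, 10.5 and 11.6 FPKM in controls 1 to 3 and 6.60, 8.45 and 12.5 FPKM in mutants 1 to 3. Mutants 1 and 2 were the 2 lowest libraries and mutant 3 the highest. The means were 10.4 ± 1.30 and 9.18 ± 3.01 FPKM, a log2 change of -0.20 ± 0.22. Without mutant 3 the log2 change was -0.44 and the unadjusted p fell under 0.05, as it did for Smoc2 at -0.30, where 10.4% of all tested genes did so. After limma's adjustment 0 of the 10 passed in that setting, beside 0.468% of all tested genes. Without both libraries numbered 3, a setting chosen after seeing the data, 0 of the 10 passed as well, beside 1.4%. There Olfm4, at a log2 change of -0.27, had an unadjusted p under 0.05, where 12.2% of all tested genes did so.

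Rnf43 and Znrf3 encode the paired membrane ligases that clear Frizzled receptors. Rnf43 (chromosome 11, 87476589 to 87549041, plus strand) had 19.9, 16.4 and 20.6 FPKM in controls 1 to 3 and 20.1, 19.4 and 21.2 FPKM in mutants 1 to 3. Only control 2 stood lower than the rest, and the log2 change of 0.10 ± 0.12 had the smallest error of the 10. Znrf3 (chromosome 11, 5176332 to 5344850, minus strand) had 1.04, 1.35 and 1.09 FPKM in controls 1 to 3 and 1.14, 0.998 and 1.33 FPKM in mutants 1 to 3, with a log2 change of -0.01 ± 0.15. Per unit of transcript length, Rnf43 stood 12.1 to 19.4 times above Znrf3 in the 6 libraries, lowest in control 2, where Rnf43 was low and Znrf3 high.

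Rgmb encodes a membrane-anchored co-receptor for bone morphogenetic proteins (chromosome 17, 15943217 to 15963550, minus strand). It had 9.50, 11.6 and 9.89 FPKM in controls 1 to 3 and 9.81, 7.48 and 10.7 FPKM in mutants 1 to 3, with mutant 2 the low library and a log2 change of -0.15 ± 0.15. Sox9, a transcription factor of crypt progenitors that Paneth cells need and that tuft and enteroendocrine cells also express (chromosome 11, 112643524 to 112649071, plus strand), had 5.06, 9.22 and 7.26 FPKM in controls 1 to 3. Mutants 1 to 3 had 7.34, 5.50 and 6.56 FPKM, inside the control range, with a log2 change of -0.11 ± 0.21. Markers of those neighbouring cells also varied: the tuft list, 9 of whose 13 genes were tested, summed to 43.2 to 54.9 FPKM in controls and to 156, 176 and 48.1 FPKM in mutants 1 to 3, and the Paneth list to 22779 to 28360 FPKM in controls and 27314 to 39556 FPKM in mutants. Their part in the Sox9 values was not tested.

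Tnfrsf19, a receptor of the tumour necrosis factor family known as a Wnt target and stem cell marker (chromosome 14, 61582671 to 61665692, minus strand), was the one gene of the 10 with more than 1 isoform in the files. It had 1.08, 1.60 and 1.20 FPKM in controls 1 to 3 and 1.23, 0.746 and 1.45 FPKM in mutants 1 to 3. Mutant 2 was the lowest library, and the log2 change was -0.14 ± 0.21. Its 2 isoforms start 8868 bases apart, and the RefSeq promoter table (build GRCm38.p6) holds a window at each start. The 250 bases before each start site are shown because they set the 2 promoters apart by a motif of TCF factors, the partners of beta-catenin. Capitals mark the motif, CTTTGAT or its reverse complement ATCAAAG, searched on both strands.
Tnfrsf19 start of the 4036-base isoform, chr14:61037988-61038237, minus strand: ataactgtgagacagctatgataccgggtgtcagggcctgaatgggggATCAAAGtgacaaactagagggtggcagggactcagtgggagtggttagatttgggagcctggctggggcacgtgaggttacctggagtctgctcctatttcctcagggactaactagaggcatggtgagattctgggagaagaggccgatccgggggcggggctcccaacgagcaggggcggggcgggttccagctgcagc
Tnfrsf19 start of the 4639-base isoform, chr14:61046856-61047105, minus strand: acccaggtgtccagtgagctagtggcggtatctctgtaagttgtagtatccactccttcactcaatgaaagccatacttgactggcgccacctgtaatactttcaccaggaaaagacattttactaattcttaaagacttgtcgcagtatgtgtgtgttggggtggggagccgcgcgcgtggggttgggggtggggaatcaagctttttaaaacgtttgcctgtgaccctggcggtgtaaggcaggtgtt

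The first window holds the motif 202 bases before the start site and the second holds no match. Of all 32851 windows of this length in the table, 3.21% hold it. The table had entries for 6 of the 10 genes, with 10 windows, of which the one shown was the one with a match. Lgr5, Smoc2, Sox9 and Znrf3 had no entry. A match describes the letters in the window and says nothing of binding.

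The isoform from the start with the motif (NM_001164155) had 0.574, 0.997 and 0.773 FPKM in controls 1 to 3 and 0.754, 0.675 and 0.966 FPKM in mutants 1 to 3. The change of this isoform was 0.03 ± 0.21 on the log2 scale, with a limma adjusted p of 0.999. The other isoform (NM_013869) had 0.510, 0.600 and 0.427 FPKM in controls 1 to 3 and 0.474, 0.0710 and 0.481 FPKM in mutants 1 to 3, and lay below the filter for testing. The low Tnfrsf19 value of mutant 2 was thus mostly in this isoform, which made up 9.51% of the gene's FPKM there and 33.2 to 47.1% in the other 5 libraries. Cufflinks assigns shared fragments to isoforms by a model, and the gene had about 67 to 138 fragments per library. Of the isoforms of the 10 genes that were tested, 0 passed, beside 0.00617% of all isoforms tested (1 of 16213), and 0 had an unadjusted p under 0.05, beside 3.79%.

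**Figure D2:**
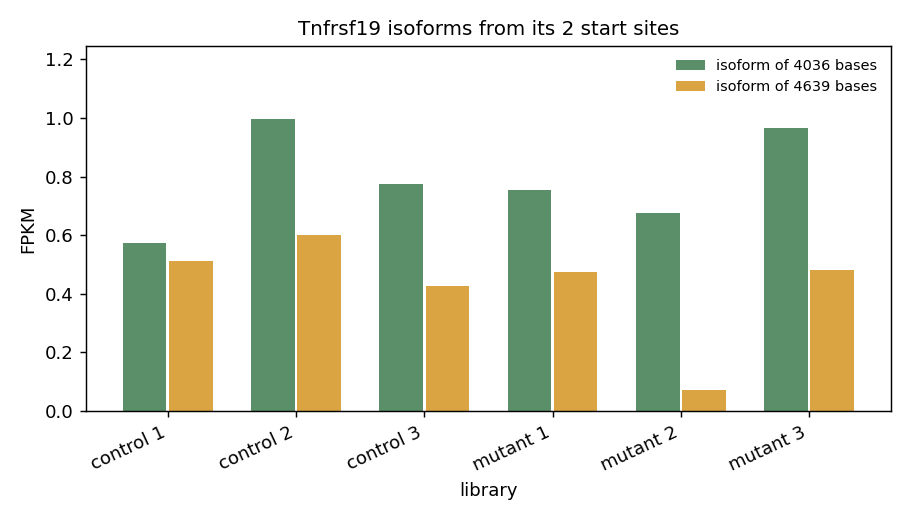
FPKM of the 2 Tnfrsf19 isoforms in each library. Green bars are the 4036-base isoform and yellow bars the 4639-base isoform. The yellow bar of mutant 2 stands at 0.0710 FPKM against 0.427 to 0.600 FPKM in the other libraries.

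The width of the interval around each change differed between the genes. The 95% limma interval stayed within a 1.5-fold change in either direction for 5 of the 10, beside 69% of all tested genes. These were Lgr5 (0.741- to 1.48-fold), Smoc2 (0.701- to 1.18-fold), Rgmb (0.703- to 1.16-fold), Znrf3 (0.777- to 1.27-fold) and Rnf43 (0.886- to 1.29-fold). The intervals of Olfm4 (0.660- to 1.44-fold), Ascl2 (0.739- to 1.57-fold), Axin2 (0.605- to 1.25-fold), Tnfrsf19 (0.645- to 1.27-fold) and Sox9 (0.655- to 1.31-fold) reached past it on one side. These are intervals of the gene fit. In the isoform fit, the 1 isoform of Lgr5, with the same FPKM, had an interval of 0.709- to 1.54-fold, past 1.5-fold. The place of Lgr5 among the 5 therefore depends on the fit. The folds are on the log2(FPKM + 0.5) scale, which understates changes of genes near 1 FPKM such as Lgr5, Tnfrsf19 and Znrf3. The median standard error of the 10 was 0.21, against 0.15 over all tested genes.

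**Figure D3:**
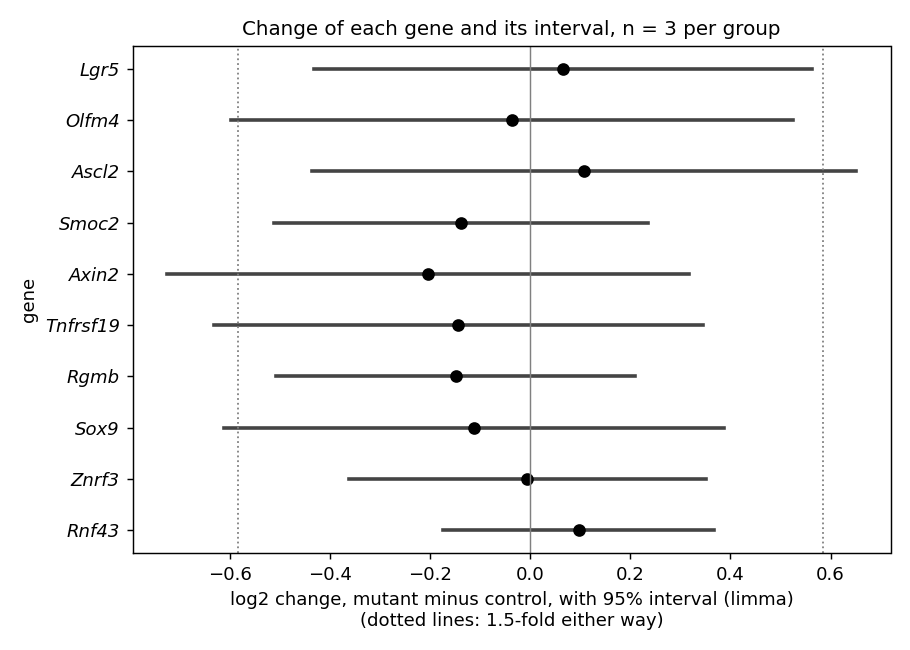
Log2 change of each gene, mutant minus control, with its 95% interval from limma (n = 3 per group). The dotted lines mark 1.5-fold in either direction. Each interval includes 0, and the widest bounds are 0.605-fold for Axin2 and 1.57-fold for Ascl2.

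In levels per transcript length, the order in controls was Olfm4, Smoc2, Rnf43, Axin2, Rgmb, Sox9, Ascl2, Lgr5, Tnfrsf19 and Znrf3. Axin2 and Rgmb were neighbours that did not differ beyond their spread, with Axin2 the higher in 3 of 6 libraries. Lgr5, Tnfrsf19 and Znrf3 lay close together as well, and Ascl2 was above Lgr5 in 6 of 6 libraries although the control ranges overlapped. Olfm4 made up 64.3 to 77.7% of the summed FPKM of the 10 genes. The ratio of Axin2 to Lgr5 varied from 3.40 in mutant 1 to 8.73 in mutant 3, while that of Ascl2 to Lgr5 stayed between 1.67 and 2.75.

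The genes varied from library to library within each group. Control 2 was the highest control for 8 of the 10 genes, all but Axin2 and Rnf43, and control 1 the lowest for 7. Mutant 3 was the highest mutant for 6 and mutant 2 the lowest for 6. As differences from the control mean in log2(FPKM + 0.5), the median of the 10 was -0.13, 0.20 and -0.06 in controls 1 to 3 and 0.03, -0.21 and 0.09 in mutants 1 to 3. The median over all tested genes ran from -0.09 in mutant 2, the lowest library for the 10 as well, to 0.06 in mutant 3, and was 0.05 in control 2, the highest library for the 10. Between libraries of the same number, 7 of the 10 were higher in mutant 1 than in control 1, 1 was higher in mutant 2 than in control 2, and 9 were higher in mutant 3 than in control 3. Rnf43 was higher in the mutant in each of the 3 same-numbered pairs, by 0.01, 0.24 and 0.04 on the log2 scale. The labels do not say what the numbers mark, so this pairing is not settled. Over all tested genes, the median likewise went from -0.07 in control 1 to -0.04 in mutant 1. It went from 0.05 in control 2 to -0.09 in mutant 2, and from 0.02 in control 3 to 0.06 in mutant 3. With replicate number as a blocking term, limma called 0 of the 10, beside 0.162% of all tested genes.

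**Figure D4:**
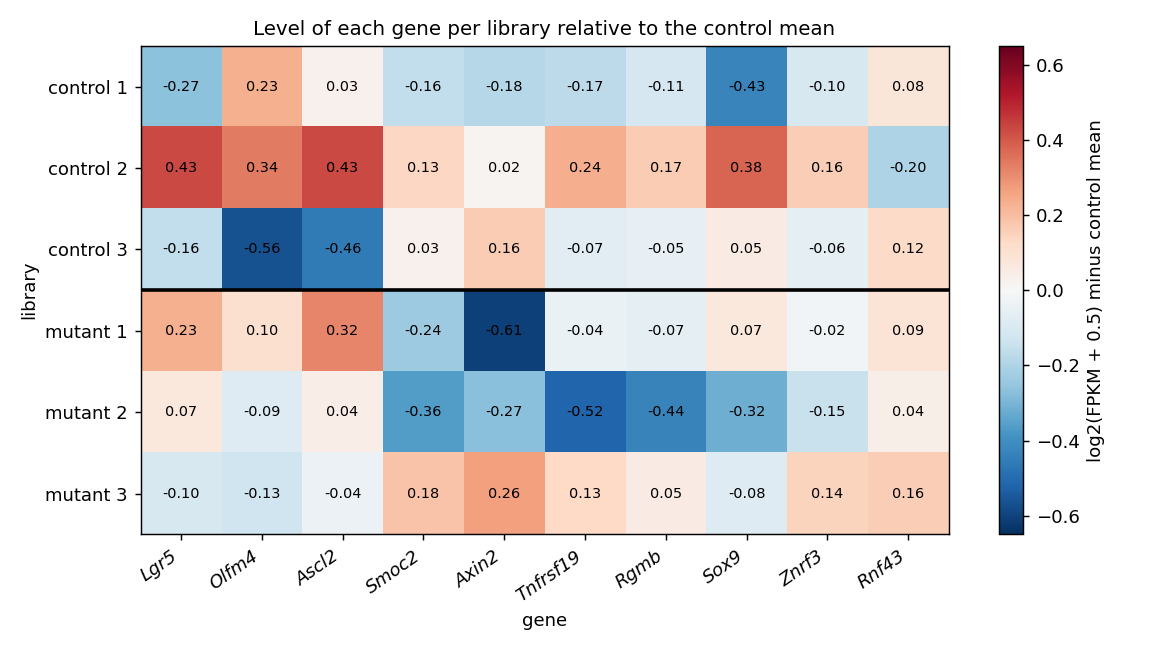
Difference of each gene in each library from its control mean, in log2(FPKM + 0.5); red is higher and blue lower, and the black line parts controls from mutants. Control 2 is red for 9 genes, Rnf43 being blue at -0.20, and the lowest cell is Axin2 in mutant 1 at -0.61.

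Over the 6 libraries, Pearson's r of each gene with the mean of the other 9 was 0.94 for Znrf3, 0.88 for Tnfrsf19, 0.86 for Rgmb, 0.71 for Sox9 and 0.68 for Smoc2. It was 0.48 for Lgr5, 0.38 for Ascl2, 0.26 for Olfm4, 0.09 for Axin2 and -0.64 for Rnf43. The points share library, depth and tissue makeup, and 6 libraries leave wide room for such values. The 10 genes did not follow 1 common profile. Axin2 and Rnf43 had the lowest r, and Lgr5, Olfm4 and Ascl2 also differed from others of the 10. Mutant 3 was the lowest mutant for these 3 genes and the highest for 6, namely Smoc2, Axin2, Tnfrsf19, Rgmb, Znrf3 and Rnf43. Among 8125 other genes with a mean of at least 5 FPKM, those closest to the mean profile of the 10 were Usp19 (r = 0.994), Mettl3 (0.993), Map3k3 (0.985), Ptcd3 (0.985) and Zfp692 (0.984), and 175 had an r of at least 0.9.

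Other genes of the crypt and of the Wnt pathway gave no call either. In each list below, limma called 0 members with and without the replicate block, and genes are given as the 2 of highest mean level. Of 26 other crypt stem cell genes tested, 12 had a higher and 14 a lower mean log2 level in mutants (median change -0.02). Gkn3, reported as a stem cell marker and related to gastrokines, had 569, 1624 and 673 FPKM in controls 1 to 3 and 1101, 227 and 34.9 FPKM in mutants 1 to 3. The Brunner gland and stomach list ranked the 6 libraries in the same order: it summed to 2677, 7759 and 3349 FPKM in controls 1 to 3, and to 4062, 1160 and 1007 FPKM in mutants 1 to 3, with the 9 tested gene models, of which Tff1 gives 2 with identical values, lower on average in mutants. Of its members below the filter, Ren1 went from a mean of 0.204 to 1.53 FPKM and Gif from 0.230 to 0.430 FPKM, and Bpifb1 was listed at 0. The list's part in the Gkn3 values was not tested. Sectm1b had 241 ± 35.8 FPKM (controls) and 254 ± 30.3 FPKM (mutants).

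Of the 7 Wnt ligands tested, 4 had a higher and 3 a lower mean (median 0.15). Wnt4 stood at 3.42 ± 1.32 and 2.94 ± 1.11 FPKM in controls and mutants, and Wnt5a at 2.74 ± 0.224 and 3.34 ± 0.924 FPKM. Of 14 R-spondins and receptors, 5 were higher and 9 lower (median -0.04). Ryk, a Wnt co-receptor, stood at 25.1 ± 2.25 and 24.6 ± 2.43 FPKM. Lgr4, the R-spondin receptor with a broader range than Lgr5, had 16.3, 19.8 and 22.5 FPKM in controls 1 to 3, and 20.6, 19.0 and 22.6 FPKM in mutants 1 to 3. Of 9 inhibitors, 3 were higher and 6 lower (median -0.03), among them the secreted Sfrp1 at 13.7 ± 2.04 and 11.5 ± 2.82 FPKM and Dkk3 at 9.23 ± 0.798 and 8.37 ± 1.23 FPKM. Dkk1 and Sost were listed at 0 in each library.

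Inside the cell, the lists had small median changes as well. Of 17 genes of the destruction complex and signal transduction, 6 were higher and 11 lower (median -0.05). Ctnnb1, which encodes beta-catenin, stood at 317 ± 30.0 and 303 ± 21.5 FPKM, and the kinase gene Csnk1a1 at 148 ± 2.83 and 150 ± 7.68 FPKM. Of 13 nuclear effectors, 5 were higher and 8 lower (median -0.04), with the co-repressor gene Ctbp1 at 76.8 ± 4.89 and 74.5 ± 6.88 FPKM and the deacetylase gene Hdac1 at 17.7 ± 2.41 and 18.2 ± 0.807 FPKM. Of 21 other Wnt targets, 13 were higher and 8 lower (median 0.02), with the Paneth protease gene Mmp7 at 108 ± 20.4 and 121 ± 17.0 FPKM and the homeobox gene Cdx1 at 67.3 ± 2.89 and 72.4 ± 6.75 FPKM. 2 genes of these lists had an unadjusted p under 0.05, beside 3.43% of all tested genes, and were picked after their values were seen. Sp5, a direct Wnt target of the Sp factors, had 20.4, 15.5 and 16.9 FPKM in controls 1 to 3 and 23.1, 24.7 and 26.5 FPKM in mutants 1 to 3, with each mutant above each control. The groups did not overlap for 4 of the 21 other Wnt targets, Sp5 and Ephb2 among them, beside 7.75% of all tested genes. The log2 change of Sp5 was 0.49 ± 0.13 (limma adjusted p = 0.999). Ephb2, a receptor that positions cells along the crypt, had 7.15, 7.29 and 5.66 FPKM in controls 1 to 3, and 5.17, 4.72 and 5.65 FPKM in mutants 1 to 3, with a log2 change of -0.34 ± 0.14 (limma adjusted p = 0.999). Its lowest control and highest mutant lay almost level, at 5.655 and 5.652 FPKM.

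The Notch list, which holds the pathway that keeps crypt progenitors from secretory fates, had 2 of 16 genes higher and 14 lower (median -0.09), with its target Hes1 at 25.3 ± 3.12 and 23.6 ± 3.87 FPKM and the fringe gene Rfng at 19.7 ± 1.45 and 17.6 ± 1.70 FPKM. The list of bone morphogenetic protein signalling, which opposes stem cell renewal, had 6 of 24 higher and 18 lower (median -0.13), with its targets Id3 at 149 ± 29.4 and 130 ± 17.6 FPKM and Id1 at 130 ± 33.4 and 121 ± 30.3 FPKM. Grem1, an antagonist of that pathway made by stromal cells, had an unadjusted p under 0.05 (3.43% of all tested genes did) and was picked after its values were seen. Grem1 stood at 8.72 ± 1.33 and 5.80 ± 1.55 FPKM (log2 change -0.57 ± 0.20, limma adjusted p = 0.999).

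The 20 proliferation genes each had a lower mean log2 level in mutants (median -0.26), with 0 called and 2 at an unadjusted p under 0.05, where 55.8% of all tested genes had a log2 change below 0 and 3.43% such a p. Their median stood at -0.07, 0.13 and -0.01 in controls 1 to 3 and at -0.40, -0.49 and 0.11 in mutants 1 to 3. By this median mutants 1 and 2 were low and mutant 3 was not, as for Axin2. Single genes departed from it, and those of this list other than Pcna and Birc5 were picked after their values were seen. Mcm3 stood at 13.0 FPKM in mutant 3, below its lowest control at 13.1 FPKM. The 2 genes with an unadjusted limma p under 0.05 were Mcm6 and Top2a. Mcm6 had 39.9, 36.3 and 24.7 FPKM in controls 1 to 3 and 23.8, 19.4 and 24.8 FPKM in mutants 1 to 3. Pcna had 75.4, 72.7 and 74.0 FPKM in mutants 1 to 3. Pcna, a sliding clamp of DNA replication, stood at 75.8 ± 5.95 and 74.0 ± 1.36 FPKM, and Birc5, a mitotic regulator, at 52.8 ± 7.88 and 47.6 ± 16.1 FPKM. The other marker lists gave no call. The enterocyte list summed to 20665 to 40670 FPKM in controls and 24755 to 49716 FPKM in mutants, and the smooth muscle list to 503 to 996 and 548 to 790 FPKM. The exocrine pancreas list had sums that did not overlap, at 16680 to 27239 and 3752 to 16577 FPKM. All 17 of its 17 models were lower on average (median -1.36). Of these, 7 had groups that did not overlap, beside 7.75% of all tested genes. An unadjusted limma p under 0.05 was found for 7, beside 3.43%. The part of these lists in the crypt gene values was not tested.

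**Figure D5:**
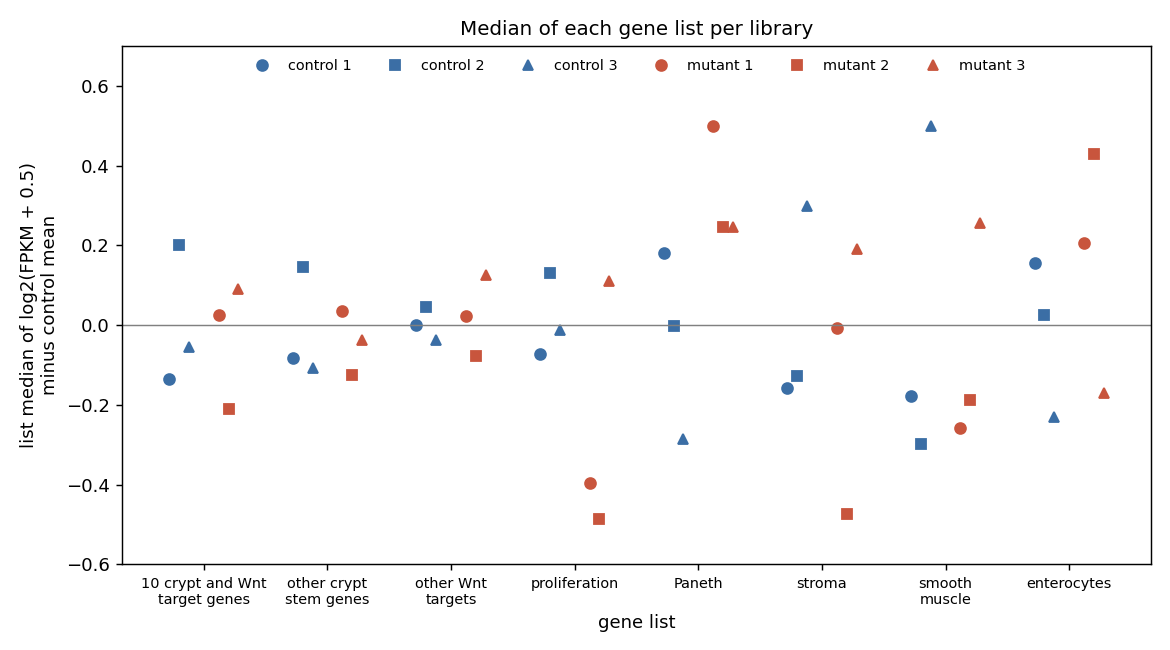
Median over each gene list of the difference from the control mean in log2(FPKM + 0.5), 1 point per library; blue is control, red is mutant and the symbol gives the replicate number. The 10 genes span -0.21 (mutant 2) to 0.20 (control 2), and the proliferation list has mutants 1 and 2 at -0.40 and -0.49.

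In the authors' deposited table of normalized counts, the 10 genes each had an adjusted p of 1, and 26 of 18605 genes (0.14%) passed 0.05. The mean normalized counts in the authors' deposited table were 162 and 173 for Lgr5, 9083 and 8774 for Olfm4, and 942 and 846 for Axin2, in controls and mutants. The log2 fold changes in the authors' deposited table ran from -0.18 for Tnfrsf19 to 0.12 for Rnf43.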

How the data were processed

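RNA of the proximal duodenum (RIN above 8) was made into TruSeq libraries, per the labels' protocols. Per the submitters' processing notes, the genome build was mm9 and the tools were CASAVA (version 1.8.2), Cufflinks, TopHat and DESeq; options and strand are not given in the sources used here. The authors deposited FPKM with Cufflinks bounds per gene and isoform, a coverage signal per isoform and, per the file headers, a comparison table of mean normalized counts (a signal), their fold ratio, its log2, p-values and adjusted p-values. Bounds served to recover fragments, within 0.1 of a whole number in 89.6 to 90.3% of single-isoform values up to 500.

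Genes were tested as log2(FPKM + 0.5) with limma 3.58.1 (trend and robust prior, statmod 1.5.0, R 4.3.3), and isoforms likewise. Python 3.11.15, pandas 2.3.3, numpy 2.4.6, scipy 1.17.1 and matplotlib 3.10.9 were used. The procedure was tested on simulated data with independent noise for each gene and with larger changes than those of the crypt genes. That test does not cover changes as small as theirs or variation shared between libraries.

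The 10 genes, the lists and the tests were chosen with earlier results of these data known. Each list is described by the 2 genes of highest mean. Deviations from group means correlated within same-numbered pairs at 0.26, 0.25 and 0.58, over 0.1, so the numbers were taken as pairs. The labels do not say what the numbers mark. Control 1 also correlated with mutant 2 at 0.30, and control 2 with mutant 1 at 0.19, both over 0.1. These correlations therefore do not settle how the libraries numbered 1 and 2 pair. Alternatives covered scaling, filters, pseudocounts, weights, the block and left-out libraries.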

Additional observations from a re-analysis of the deposited data

How the results depend on the processing

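The count of 0 of the 10 genes, and of 0 of their isoforms, held in each of the 19 settings computed, and the lowest limma adjusted p of any of the 10 was 0.346 (Axin2 with library quality weights, log2 change -0.45). The count over all tested genes, 3, was 1 without the filter on low values, 1 with upper quartile scaling, 19 with library quality weights and 22 with the replicate block, which changed no call of the 10. Settings chosen after seeing the data gave 0 without transcripts under 200 bases (466 at an unadjusted p under 0.05), 0 with limma-voom on recovered fragments (483) and 186 without both libraries numbered 3. Leaving out 1 library gave 0 to 63 genes, with 63 without mutant 3 and 0 without control 1 or control 2 (335 and 295 at an unadjusted p under 0.05).

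Of the 10 log2 changes, 7 changed sign in at least 1 setting. Over the left-out libraries they ran from -0.067 to 0.28 for Lgr5, -0.32 to 0.13 for Olfm4, -0.12 to 0.32 for Ascl2, -0.28 to 0.042 for Tnfrsf19, -0.33 to 0.076 for Sox9, -0.081 to 0.074 for Znrf3 and -0.0043 to 0.16 for Rnf43, and the cause was not tested. Sox9 was at 0.10 with library quality weights, Znrf3 at 0.038 with quantile normalization and Ascl2 at -0.049 without both libraries numbered 3. Smoc2, Axin2 and Rgmb stayed negative in each setting. Of 1363 values of other named genes and lists across settings, 18 moved by more than the SD of the replicates, and 33 of the 72 quantities behind them changed sign in at least 1 setting. Lgr5, Ascl2, Tnfrsf19 and Znrf3 rest on 67 to 225 fragments per library, with a counting error of up to 12.2%, below the spread of the controls for each of these genes.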
